A study of Mus musculus with 96 samples.

Results

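The expression profiles of the hindbrain and the forebrain pieces of the C57BL/6J mouse brain were compared within the same animals. C57BL/6J is the most widely used inbred laboratory mouse. All arrays in the Affymetrix Mouse Gene 1.1ST format labelled as C57BL/6J hindbrain (8 arrays) or C57BL/6J forebrain (8 arrays) were taken, so that 16 of the 96 samples of the series were used, and the pieces of a mouse were paired by the mouse identifier in the labels. The mice were adult males, 4 given clozapine, an antipsychotic drug, and 4 given vehicle by a single injection 3 h before they were killed, and both treatments were pooled. The remaining samples used for comparison were 16 hindbrain and forebrain arrays of 8 NOD/ShiLtJ males (4 given clozapine and 4 given vehicle), another inbred strain, the intact hemispheres of the same 8 C57BL/6J mice (labelled whole brain), and 16 arrays in the older 1.0ST format on which the same C57BL/6J RNA was measured. In every mouse the cerebellum had been removed and discarded and the olfactory bulbs left on, and the piece labelled hindbrain had been scooped out of one hemisphere with curved forceps, so that everything left of that hemisphere was the forebrain.

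Levels are the deposited log2 intensities, on which 1 unit is a 2-fold change, for 28310 transcript clusters, the sets of probes that stand for a gene. The median of an array lay between 6.54 and 6.58 in the 8 hindbrain samples and between 6.47 and 6.52 in the 8 forebrain samples, and the number of mice limited the precision of every value. The files hold no detection calls, so the 95th percentile of 1006 olfactory receptor clusters, which the adult brain barely makes, was taken as the background level, at 4.83. Where all arrays of a piece lay under it, a fold is given as at least that against 4.83, and none is given where both pieces averaged under it. Some genes named below lay above it on only part of the arrays of the dimmer piece. These arrays were 1 of 8 for Akr1c18, Hoxb5 and Pkd2l1, 3 of 8 for Gata3, Mir145a and Smyd1, 4 of 8 for Dsp, 5 of 8 for Tph2, En1 and Gabre, 6 of 8 for Eomes and Sim1, and 7 of 8 for En2, Iyd, Neurod6, Slc6a2 and Tfap2b. The female transcript Xist and 3 genes of the Y chromosome gave no call between the pieces, and the 7 anterior pituitary genes measured gave no call in either direction. These are bulk RNA samples, in which fewer cells of a type and less RNA per cell cannot be told apart.

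The forebrain holds the cerebral cortex, the hippocampus and the striatum, whose projection neurons are excitatory cells that use the vesicular glutamate transporter Slc17a7 in the cortex and hippocampus, and inhibitory spiny cells in the striatum. The brainstem holds the small nuclei that make dopamine, serotonin and noradrenaline, most of the glycine-releasing neurons of the brain, the motor nuclei of the cranial nerves and the large myelinated tracts that join the brain to the spinal cord. The thalamus and hypothalamus belong to the forebrain in anatomy and lie next to the brainstem. Many of their neurons use the other glutamate transporter, Slc17a6, or peptides.

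Of the 28310 clusters, 11514 (40.7%) were called at an adjusted p below 0.05 in the paired limma fit, 6332 (22.4%) higher and 5182 (18.3%) lower in hindbrain, and the difference reached 2-fold in 368 that were higher and 393 that were lower. The median difference over all clusters was -0.02. The shares of 22.4% and 18.3% are the background for the counts of listed genes below, and a count near them is no result about its list. The hindbrain arrays had the higher medians, by 0.0707 in the median of the pairs, and the balance of directions depended on the scale. With each array centred on its median, 4941 clusters were higher and 8685 lower. The share higher among the called clusters was then 36.3%, against 55% on the values as deposited. On the 1.0ST arrays 99.2% of the called clusters differed in the same direction and 76.2% were also called.

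The genes with the largest difference in each direction were Slc6a5 and Tbr1. Slc6a5, the glycine transporter of glycine-releasing neurons, reached 9.88 to 11.18 (median 10.46) in hindbrain, against 5.05 to 5.81 (median 5.46) in forebrain. All 8 hindbrain values lay above all 8 forebrain values, and the difference was 4.99 ± 0.12 log2 units, 31.9-fold higher, adjusted p = 5.6e-10 (± SE, 8 pairs, as for all differences given here). Glra1, the glycine receptor subunit of the adult brainstem and spinal cord, reached 9.88 to 10.93 (median 10.30) in hindbrain, against 5.19 to 6.32 (median 5.39) in forebrain. Its groups did not overlap either, with a difference of 4.82 ± 0.12 log2 units, 28.3-fold higher, adjusted p = 5.6e-10. At the other end stood Tbr1, a transcription factor of the deep layers of the cortex, with 4.83 to 7.62 (median 5.63) in hindbrain, against 9.39 to 9.80 (median 9.63) in forebrain. The highest hindbrain value lay below the lowest forebrain value, and the difference was -3.81 ± 0.28 log2 units, 14.1-fold lower, adjusted p = 5.6e-07. The 30 genes plotted are the 15 at either extreme among called genes that moved the same way in 8 of 8 mice and in the mean on the 1.0ST arrays. All 30 had groups that did not overlap, and the share of all clusters with separate groups is not given here. All 30 were also called on the 1.0ST arrays, against 76.2% of all called clusters. Such genes were selected for their differences in this contrast and their direction on both formats. The separate groups and the 1.0ST calls therefore describe the contrast and are not a separate test of it.

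**Figure D1:**
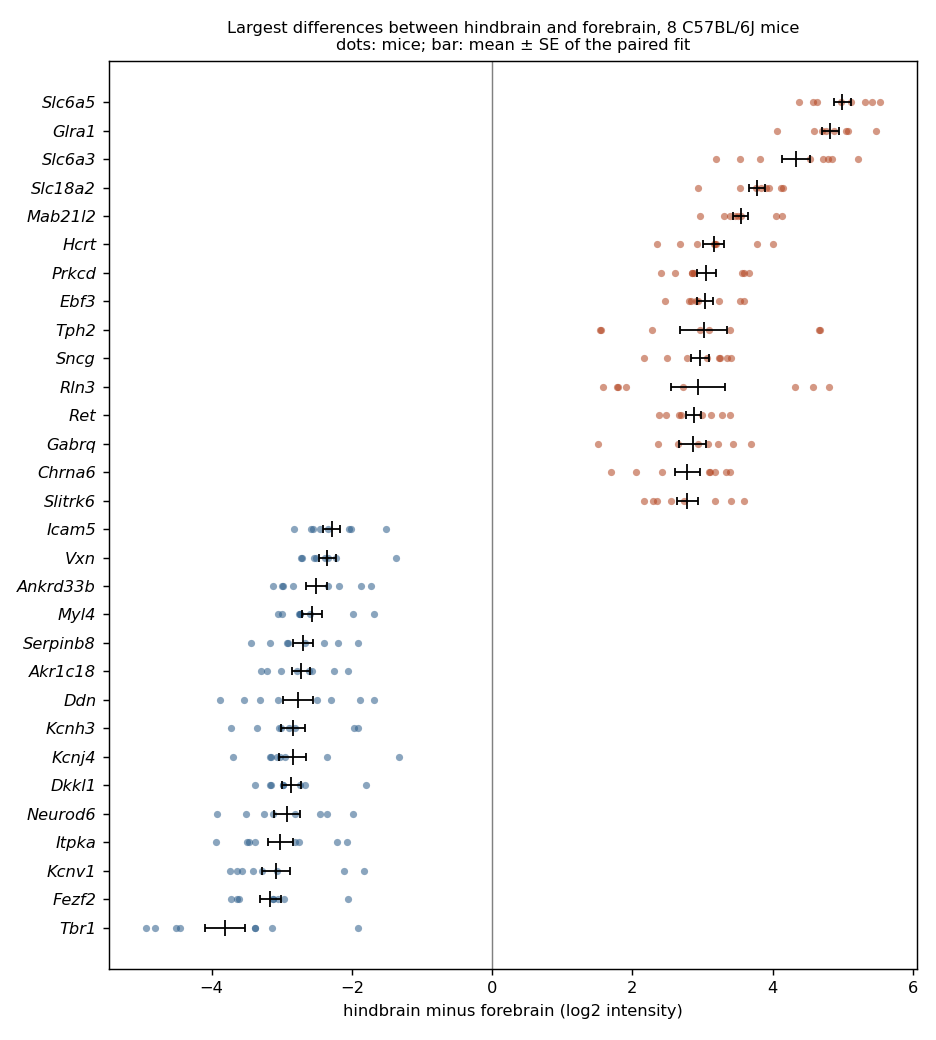
Difference between hindbrain and forebrain (x axis, log2 intensity) of the 15 genes highest and the 15 genes lowest in hindbrain, one row a gene. Dots are the 8 mice, and the black bar and whiskers are the mean ± SE of the paired fit. Every dot of a gene lies on the same side of 0, as the choice of genes required, with means between -3.81 for Tbr1 and 4.99 for Slc6a5. The forebrain levels of Chrna6 and Slitrk6 were under the background level, so that their plotted differences have no exact size. The same holds for Akr1c18, whose hindbrain level averaged 4.40, with 1 of 8 arrays above the background level.

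Several hindbrain samples stood apart in genes of neighbouring tissues. Gabra6, a GABA-A receptor subunit of cerebellar granule cells, was at 9.38 in the hindbrain of mouse BB701 and at 7.10 in that of BB703, while the other 6 hindbrain samples lay between 3.94 and 5.01 and the forebrain samples between 3.92 and 4.21. Cbln3, another granule cell gene, gave the same picture, with 9.85 in BB701 and 7.61 in BB703 against 5.16 to 5.87 in the other hindbrain samples. Granule cell genes were thus measurable in at least these 2 hindbrain samples, although the cerebellum had been discarded at dissection. Over the 8 mice, 10 of 16 cerebellar genes were higher and 2 lower (median 0.88), and 11 were higher and 3 lower (median 0.41) without BB701 and BB703. Several members of this list (Zic1, En2, Barhl1) are also genes of the thalamus or midbrain. Over all clusters, 10051 were called without these 2 mice, 5587 higher and 4464 lower.

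Mouse BB685 stood apart in striatal genes. Drd1, the D1 dopamine receptor of striatal projection neurons, was at 8.50 in its hindbrain and at 5.90 to 7.05 in the other 7, against 8.21 to 9.39 in forebrain, so that the level in BB685 hindbrain overlapped the forebrain range. Gpr6, an orphan receptor of the indirect-pathway striatal neurons, was also highest in that hindbrain, at 9.07. Mouse BB702 stood apart in cortical genes, with Tbr1 at 7.62 in its hindbrain against 4.83 to 6.33 in the other 7. Without BB702, 22 of 25 transcription factors of the telencephalon and cortex were lower (median -1.42), against 22 (median -1.35) with it. Hoxa5, a Hox gene of the caudal medulla and spinal cord, was at 4.75 in the hindbrain of BB702 and 4.68 in that of BB703, the one just above and the other within the forebrain range of 4.49 to 4.70, while the other 6 hindbrain samples had 5.35 to 6.52. BB685, BB701, BB702 and BB703 were the 4 clozapine mice, so treatment and these departures cannot be told apart, and none of the departures was shared by all 4. Vehicle mice stood apart in other genes, among them BB707 in Fmod, Ogn and Gjb1. The part of such departures in the results below was tested only by leaving mice out.

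**Figure D2:**
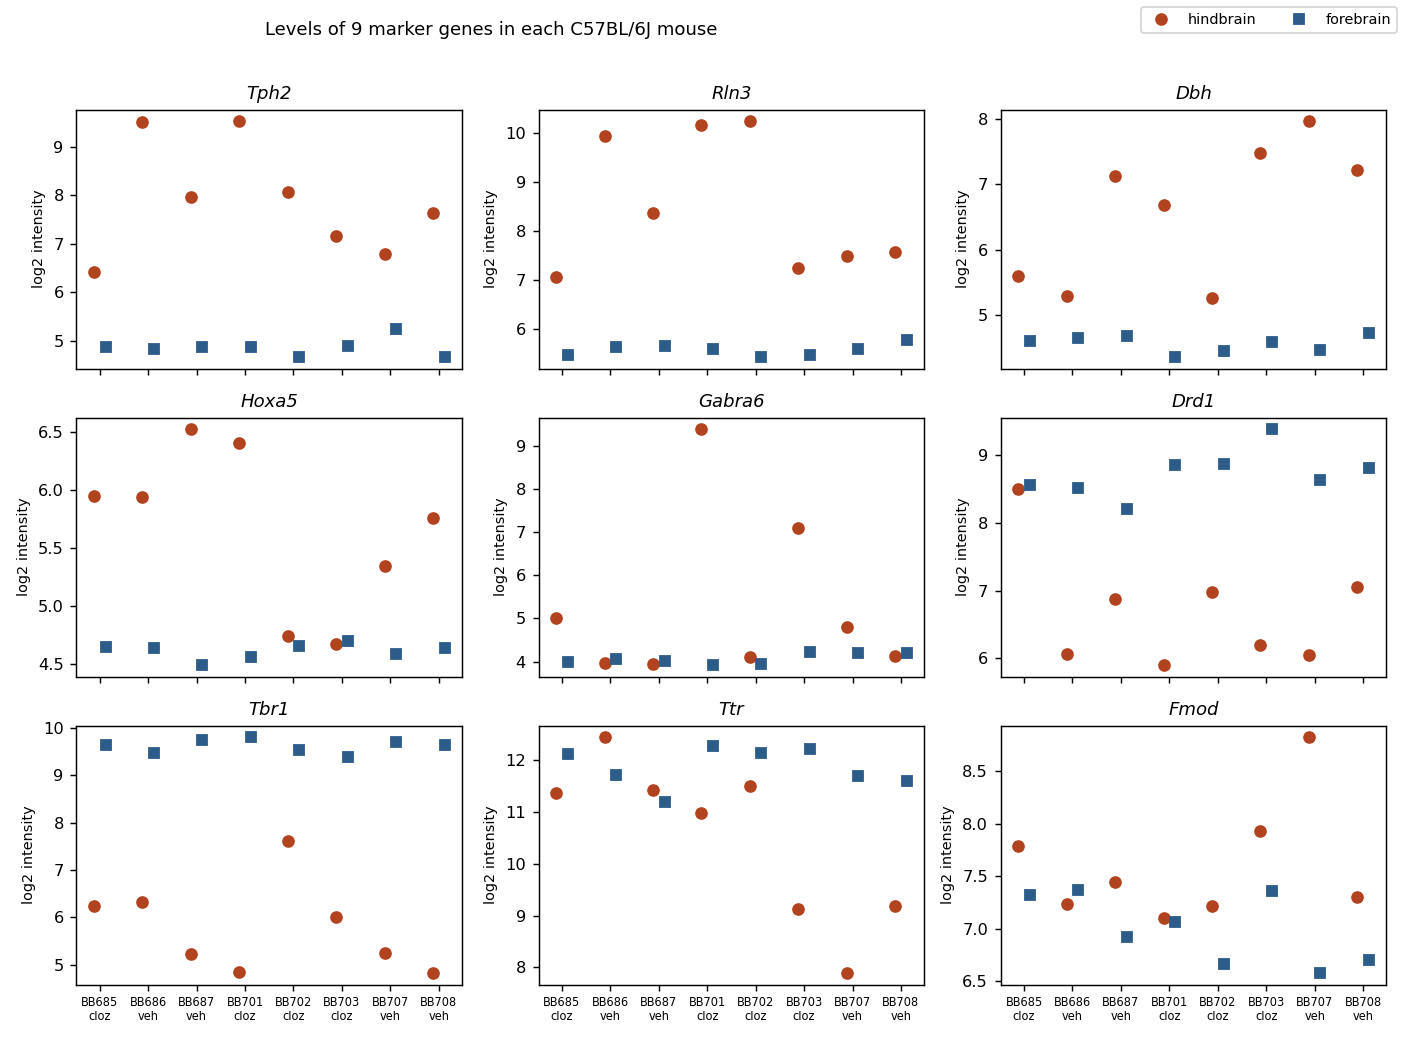
Levels (y axis, log2 intensity, a separate scale in each panel) of 9 marker genes in the hindbrain (circles) and forebrain (squares) of each of the 8 C57BL/6J mice, with the treatment under the mouse identifier (cloz, clozapine; veh, vehicle). Tph2, Rln3 and Dbh varied by over 2 units among the hindbrain samples, Gabra6 was high in the hindbrain of BB701 and BB703, Drd1 in that of BB685, Tbr1 in that of BB702 and Fmod in that of BB707.

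Genes of glycine and of fast transmission were considered next. Glycine opens chloride channels at inhibitory synapses of the brainstem and spinal cord. Of 9 glycine genes 8 were higher in hindbrain and none lower, with a median difference of 0.98, against the -0.02 of all clusters. Besides Slc6a5 and Glra1, they included the receptor subunits Glra3 (1.36 ± 0.11 log2 units, 2.57-fold higher, adjusted p = 1.4e-06) and Glra2 (0.98 ± 0.11 log2 units, 1.97-fold higher, adjusted p = 1.6e-05). Slc6a9, the glycine transporter found mainly on glia, was higher by 1.41 ± 0.063. Gphn, the scaffold protein gephyrin that holds both glycine and GABA-A receptors in place, had a difference of 0.04 ± 0.045 (adjusted p = 4.9e-01) and was not called. The 2 main vesicular glutamate transporters ran in opposite directions. Slc17a6 was at 11.22 to 11.60 (median 11.36) in hindbrain, against 8.49 to 9.27 (median 8.74) in forebrain. The groups did not overlap, and the difference was 2.55 ± 0.069 log2 units, 5.84-fold higher, adjusted p = 9.4e-10. Slc17a7 was at 9.06 to 10.35 (median 9.73) in hindbrain, against 11.50 to 11.90 (median 11.81) in forebrain. Again the groups were apart, with a difference of -2.01 ± 0.12 log2 units, 4.02-fold lower, adjusted p = 1.4e-07. Genes of GABA release moved little: Gad2, one of the 2 enzymes that make GABA, was higher by 0.28 ± 0.097 (adjusted p = 3.4e-02), a call lost on leaving out any one of BB685, BB686, BB687, BB702 or BB708 (differences of 0.21 to 0.28), Gad1, the other enzyme, had a difference of -0.14 ± 0.068 (adjusted p = 1.2e-01), and Slc32a1, the vesicular transporter that GABA and glycine neurons share, was higher by 0.39 ± 0.075 (adjusted p = 1.2e-03).

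**Figure D3:**
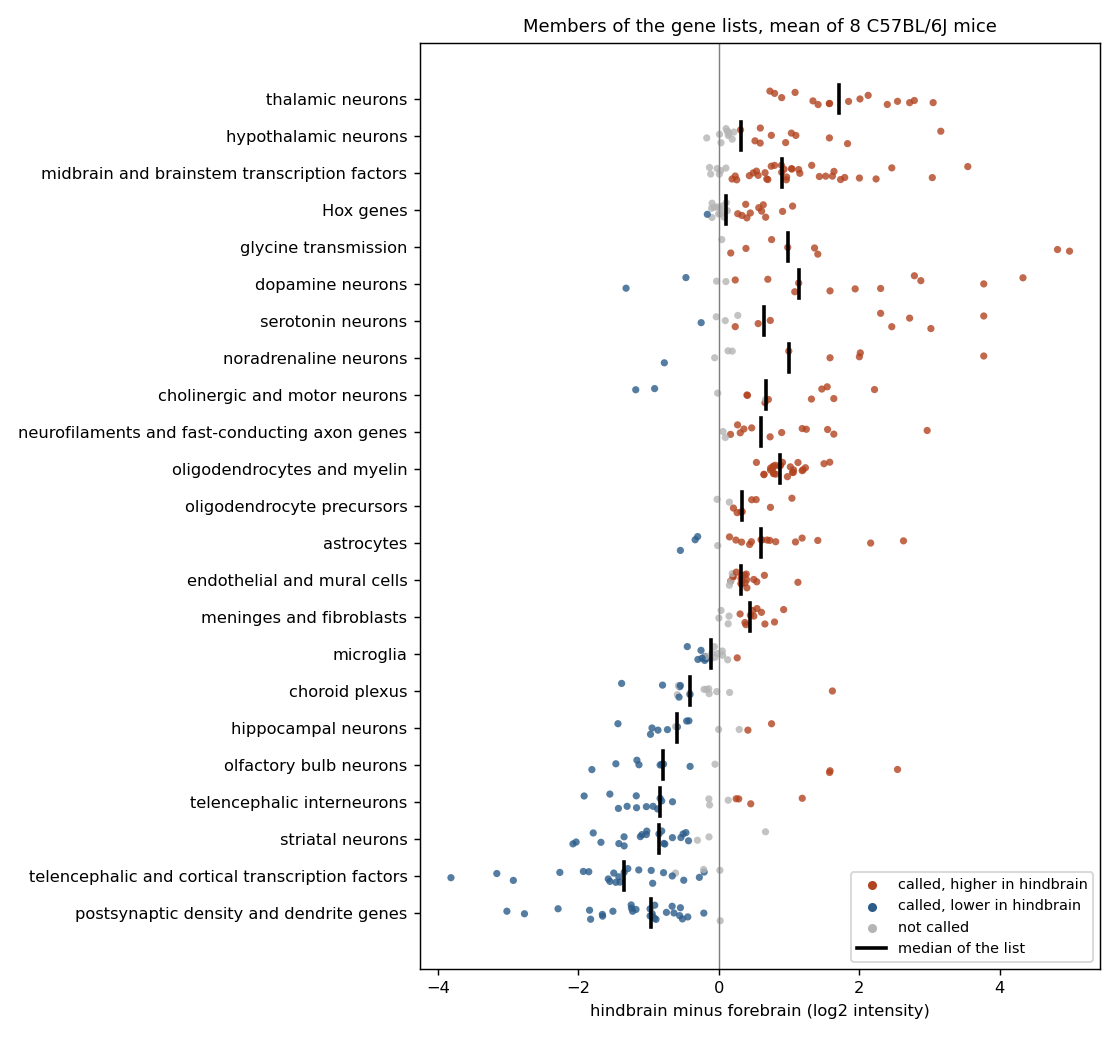
Difference between hindbrain and forebrain (x axis, log2 intensity, mean of 8 mice) of each measured member of 23 gene lists, one row a list. Dots are genes, coloured by whether they were called higher, lower or not at all, and the black line is the median of the list, between -1.35 for cortical transcription factors and 1.71 for thalamic genes.

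Dopamine neurons lie in the substantia nigra and ventral tegmental area of the midbrain, and of 15 genes of these cells 11 were higher and 2 lower in hindbrain (median 1.14). Slc6a3, the dopamine transporter, was at 9.24 to 10.73 (median 10.23) in hindbrain, against 5.37 to 6.23 (median 5.70) in forebrain. Each hindbrain value exceeded each forebrain value by over 3 units, and the difference was 4.33 ± 0.20 log2 units, 20.1-fold higher, adjusted p = 3.0e-08. The vesicular monoamine transporter Slc18a2 (3.77 ± 0.11 log2 units, 13.7-fold higher, adjusted p = 2.3e-09) and the growth factor receptor Ret (2.88 ± 0.11 log2 units, 7.35-fold higher, adjusted p = 8.5e-09) were also among the 15 genes highest in hindbrain, as was the nicotinic subunit Chrna6. Chrna6 was at 6.08 to 7.63 (median 7.46) in hindbrain, against 4.23 to 4.56 (median 4.36) in forebrain. All its forebrain arrays were under the background level, and it was at least 5.03-fold higher in hindbrain (adjusted p = 1.8e-07). Th, tyrosine hydroxylase, the first enzyme of dopamine and noradrenaline synthesis, was at 9.26 to 10.41 (median 9.95) in hindbrain, against 7.61 to 9.27 (median 8.22) in forebrain. Its groups overlapped, the forebrain samples of BB687 and BB707 being the highest at 9.20 and 9.27, and the difference was 1.58 ± 0.20 log2 units, 3-fold higher, adjusted p = 4.4e-05. Th is also made by cells of the olfactory bulb, which the forebrain piece held. The 2 members that were lower were Nr4a2 (-1.32 ± 0.13 log2 units, 2.5-fold lower, adjusted p = 5.8e-06), a nuclear receptor of dopamine neurons that the deep cortex and claustrum also make, and the D2 receptor Drd2 (-0.47 ± 0.10 log2 units, 1.38-fold lower, adjusted p = 3.1e-03), which striatal neurons make. Drd2 fell by less without BB701 and BB703, with a difference of -0.30. Pitx3, a transcription factor of dopamine neurons, had a difference of -0.03 ± 0.052 (adjusted p = 6.7e-01).

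Of 12 serotonin neuron genes 8 were higher and 1 lower (median 0.65). Tph2, the enzyme that starts serotonin synthesis in the brain, was at 6.41 to 9.52 (median 7.80) in hindbrain, against 4.67 to 5.23 (median 4.87) in forebrain. The hindbrain samples were all above the forebrain samples but spread over 3 units, BB701 and BB686 being highest at 9.52 and 9.50 and BB685 lowest at 6.41, and the difference was 3.02 ± 0.33 log2 units, 8.11-fold higher, adjusted p = 1.4e-05. The serotonin transporter Slc6a4 was higher by 2.72 ± 0.36 (adjusted p = 6.9e-05), and the transcription factor Gata3, which serotonin neurons and other brainstem cells make, by 2.46 ± 0.14. Htr1a, the inhibitory autoreceptor of these cells, was the one lower member (-0.25 ± 0.056 log2 units, 1.19-fold lower, adjusted p = 3.0e-03), and it is also made in the hippocampus. Rln3, the peptide relaxin-3 of the nucleus incertus in the pons, was at 7.05 to 10.23 (median 7.96) in hindbrain, against 5.42 to 5.76 (median 5.58) in forebrain. Its hindbrain levels fell into a high group of BB702, BB701 and BB686 (9.94 to 10.23) and 5 lower samples (7.05 to 8.36), and the difference was 2.93 ± 0.38 log2 units, 7.64-fold higher, adjusted p = 5.4e-05.

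Noradrenaline comes from the locus coeruleus of the pons and cells of the medulla. Of 9 genes of these cells 5 were higher and 1 lower in hindbrain (median 1.00). Dbh, the enzyme that turns dopamine into noradrenaline, was at 5.26 to 7.96 (median 6.90) in hindbrain, against 4.36 to 4.72 (median 4.59) in forebrain. No value overlapped, and as all forebrain arrays were under the background level, Dbh was at least 3.35-fold higher (adjusted p = 1.2e-04). The order of the mice was not that of Tph2: BB707 had the highest Dbh, 7.96, with Tph2 at 6.79, and BB686 had Dbh at 5.28, the lowest but one, with Tph2 at 9.50. The noradrenaline transporter Slc6a2 was higher by 1.00 ± 0.12 (adjusted p = 3.7e-05) and the peptide galanin, Gal, which locus coeruleus and hypothalamic neurons make, by 2.00 ± 0.14 (adjusted p = 4.0e-07). Adra2c, a noradrenaline receptor of the striatum, was lower (-0.78 ± 0.058 log2 units, 1.71-fold lower, adjusted p = 5.9e-07), and Pnmt, the enzyme of adrenaline synthesis, was not called (adjusted p = 5.1e-01) and lay under the background level in both pieces.

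Acetylcholine is the transmitter of cranial motor neurons, of pontine nuclei and of interneurons of the striatum. Of 13 genes of cholinergic and motor neurons 9 were higher and 2 lower (median 0.67). Chrna3, a nicotinic subunit of the medial habenula and brainstem, was at 7.58 to 8.75 (median 8.26) in hindbrain, against 5.65 to 6.11 (median 6.00) in forebrain. The groups were separate, with a difference of 2.22 ± 0.16 log2 units, 4.65-fold higher, adjusted p = 4.3e-07. Prph, the intermediate filament peripherin of motor and sensory neurons, was higher by 1.64 ± 0.16 (adjusted p = 3.9e-06), the choline transporter Slc5a7 by 1.54 ± 0.24 (adjusted p = 2.2e-04), and Chat, the enzyme that makes acetylcholine, by 0.66 ± 0.21 (adjusted p = 2.5e-02). Slit3, an axon guidance ligand, and the nicotinic subunit Chrna5 were lower, with differences of -1.18 ± 0.094 and -0.91 ± 0.17. Of all 16 nicotinic subunits measured 8 were higher and 2 lower. Chrna4 and Chrnb2, which form the main receptor of the brain, were higher by 0.87 ± 0.14 and 0.59 ± 0.046, while Chrna7, the subunit of the other abundant receptor, had a difference of -0.0032 ± 0.047 (adjusted p = 9.7e-01) and Chrna10 was lower (adjusted p = 5.4e-05; at least 1.07-fold, its hindbrain arrays all being under the background level).

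The transcription factors that pattern the midbrain and brainstem were higher as a group: 33 of 39 were called higher and none lower, with a median of 0.90. Mab21l2, a gene of the developing midbrain and eye, was at 8.68 to 9.39 (median 8.84) in hindbrain, against 5.25 to 5.72 (median 5.39) in forebrain. The 2 ranges were over 2 units apart, and the difference was 3.55 ± 0.11 log2 units, 11.7-fold higher, adjusted p = 2.7e-09. Ebf3, a helix-loop-helix factor, followed (3.04 ± 0.11 log2 units, 8.23-fold higher, adjusted p = 7.0e-09), then Gata3 at 2.46 and Tfap2b, of the AP-2 family, at 2.24. En1 and En2, which mark the border of midbrain and hindbrain, were higher by 1.14 ± 0.096 and 1.52 ± 0.21, and Otx2, of the forebrain and midbrain and of the choroid plexus, by 1.62 ± 0.24. The other 6 members were not called, among them Tlx3 (-0.02), Foxa2 (0.10) and Atoh1, which lay under the background level in both pieces.

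Hox genes are ordered along the body axis, and the anterior limits of the more anterior ones lie within the medulla and caudal pons. Of 25 measured 11 were higher and 1 lower, and the median was 0.11. The members called higher belonged to paralogue groups 2 to 6: they included Hoxa5 (at least 1.78-fold higher, adjusted p = 1.3e-03), Hoxb5 (0.91 ± 0.19) and Hoxb3 (0.63 ± 0.11), and Hoxa2, which averaged under the background level in both pieces (adjusted p = 4.0e-05). Hoxa5 was at 4.68 to 6.52 (median 5.85) in hindbrain, against 4.49 to 4.70 (median 4.64) in forebrain. The groups overlapped through BB703 only, and all forebrain arrays were under the background level. The more posterior genes, of groups 7 to 10, had differences of -0.16 to 0.12. Hoxc8 was called lower (-0.16 ± 0.056, adjusted p = 3.3e-02), with all arrays of both pieces under the background level, a call lost on leaving out any one of BB686, BB687, BB701, BB702 or BB703 (differences of -0.17 to -0.13). The number of Hox calls depended on the model. In a fit of 48 arrays with 5 surrogate variables, estimated sources of shared variation, 1 Hox gene was called higher. The fit of 48 arrays without these variables called 11 higher. Among clusters above the background level 7 were called higher.

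The hindbrain piece was also described by markers of the thalamus and hypothalamus, which lie outside the hindbrain of anatomy. The lists were chosen with earlier results of these data known, so they describe the piece and are not a separate test of its label. All 16 thalamic genes measured were higher in the hindbrain piece, with differences of 0.73 to 3.05 and a median of 1.71, the highest of any list. Some of the 16, such as Slc17a6, Calb2 and Zic1, are also made by cells of the brainstem or cerebellum. Prkcd, protein kinase C delta, a marker of thalamic relay neurons, was at 10.15 to 11.14 (median 10.64) in hindbrain, against 7.07 to 8.54 (median 7.43) in forebrain. The groups stood well apart, and the difference was 3.05 ± 0.14 log2 units, 8.3-fold higher, adjusted p = 2.7e-08. Slitrk6, a neuronal membrane protein, was at 6.34 to 7.29 (median 6.85) in hindbrain, against 3.70 to 4.60 (median 4.07) in forebrain. Its forebrain arrays were all under the background level, and it was at least 4.05-fold higher (adjusted p = 6.3e-08). Tcf7l2, a Wnt pathway factor that marks the adult thalamus (2.72 ± 0.072 log2 units, 6.58-fold higher, adjusted p = 9.4e-10), and Lhx9, a factor of the thalamus and pretectum (2.40 ± 0.10 log2 units, 5.28-fold higher, adjusted p = 2.2e-08), were also higher. The markers thus go against the anatomical sense of the label, which is used here as the name of the dissected piece, and the same holds for the midbrain and hypothalamic genes given above and below.

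Of 21 hypothalamic genes 11 were higher and none lower, with a median of 0.31. Hcrt, the precursor of the orexins of the lateral hypothalamus, was at 8.37 to 9.87 (median 9.08) in hindbrain, against 5.73 to 6.15 (median 5.92) in forebrain. All mice showed it, and the difference was 3.16 ± 0.15 log2 units, 8.95-fold higher, adjusted p = 3.3e-08. Oxt, oxytocin, was at 6.57 to 8.74 (median 8.14) in hindbrain, against 5.57 to 6.44 (median 6.11) in forebrain. The hindbrain of BB707 was the lowest at 6.57, close to the forebrain range, and the difference was 1.83 ± 0.23 log2 units, 3.56-fold higher, adjusted p = 3.5e-05. Irs4, an insulin receptor substrate, and Sim1, a factor of the paraventricular nucleus, were higher by 1.57 ± 0.10 and 1.097 ± 0.11. Avp, vasopressin, had a difference of 0.59 ± 0.16 (adjusted p = 9.2e-03), Pomc, the precursor of melanocortins in the arcuate nucleus, of 0.10 ± 0.071 (adjusted p = 2.8e-01), and Crh, the releasing hormone of the stress axis, which the cortex also makes, of -0.17 ± 0.11 (adjusted p = 2.6e-01). Pomc was near the background level in both pieces, above it on 4 of 8 hindbrain and 2 of 8 forebrain arrays.

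In the other direction, 22 of 25 transcription factors of the telencephalon and cortex were lower in hindbrain and none higher, with a median of -1.35. Beside Tbr1 they included Fezf2, which specifies corticospinal neurons, at 5.54 to 7.15 (median 6.00) in hindbrain, against 8.75 to 9.68 (median 9.27) in forebrain. The hindbrain of BB702 was the nearest to forebrain, and the difference was -3.16 ± 0.15 log2 units, 8.95-fold lower, adjusted p = 3.3e-08. Neurod6, a helix-loop-helix factor of cortical and hippocampal excitatory neurons, was lower, with a difference of -2.93 ± 0.18 (adjusted p = 1.4e-07), Egr3, an activity-dependent zinc finger factor, at -2.26 ± 0.11, and Lhx2 and Emx2, early factors of the cortex, at -1.496 ± 0.091 and -1.35 ± 0.092. Rorb, a factor of cortical layer 4 that the thalamus also makes, had a difference of 0.02 ± 0.080 (adjusted p = 9.0e-01).

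Another 10 of the 15 genes lowest in hindbrain had varied functions. Kcnv1, a silent potassium channel subunit, was at 6.75 to 8.45 (median 7.16) in hindbrain, against 10.03 to 10.74 (median 10.47) in forebrain. The groups were separate and the difference was -3.08 ± 0.20 log2 units, 8.46-fold lower, adjusted p = 1.9e-07. Kcnj4, an inward rectifier (-2.84 ± 0.20 log2 units, 7.17-fold lower, adjusted p = 3.1e-07), Kcnh3, a channel of the ether-a-go-go family (-2.84 ± 0.17 log2 units, 7.15-fold lower, adjusted p = 1.3e-07), and Icam5, an adhesion molecule of telencephalic dendrites (-2.29 ± 0.12 log2 units, 4.89-fold lower, adjusted p = 5.0e-08), were also lower. Dkkl1 (-2.86 ± 0.14 log2 units, 7.26-fold lower, adjusted p = 3.4e-08) is related to the Dickkopf proteins that inhibit Wnt signals, Akr1c18 (-2.72 ± 0.12 log2 units, 6.59-fold lower, adjusted p = 2.9e-08) is a steroid-metabolizing enzyme, and Myl4 (-2.57 ± 0.14 log2 units, 5.93-fold lower, adjusted p = 5.5e-08) a myosin light chain best known from the heart. Serpinb8, a protease inhibitor, Ankrd33b, an ankyrin repeat gene, and Vxn, vexin, a regulator of neurogenesis, had differences of -2.70, -2.51 and -2.35. Akr1c18 averaged 4.40 in hindbrain, under the background level, so that its fold is not exact.

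Genes of the striatum were lower in 20 of 23 cases and higher in none (median -0.85; without BB685, 21 lower and a median of -0.96). Gpr6 was at 6.32 to 9.07 (median 6.86) in hindbrain, against 8.77 to 9.82 (median 9.21) in forebrain. Only the hindbrain of BB685 reached the forebrain range, and the difference was -2.08 ± 0.25 log2 units, 4.22-fold lower, adjusted p = 3.0e-05. Drd1 fell by 2.03 ± 0.28 (adjusted p = 8.1e-05), the muscarinic receptor Chrm4 by 1.79 ± 0.14 (adjusted p = 7.3e-07), and Ppp1r1b, the phosphoprotein DARPP-32 through which dopamine acts in spiny neurons, by 1.68 ± 0.17 (adjusted p = 5.4e-06). Isl1, a factor of striatal direct-pathway and cholinergic cells and of motor neurons, had a difference of 0.67 ± 0.26 in the other direction (adjusted p = 6.0e-02).

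Of 13 hippocampal genes 8 were lower and 2 higher (median -0.59). Trpc6, a cation channel of the dentate gyrus, was lower, with a difference of -1.44 ± 0.077 (adjusted p = 5.9e-08) and Wfs1, a membrane protein of the endoplasmic reticulum strong in CA1, at -0.73 ± 0.10. Dsp, the junction protein desmoplakin, was lower, with a difference of -0.95 ± 0.14 in its brighter cluster, while a dimmer cluster of the gene gave 0.06. Prox1, a factor of dentate granule cells and also of the thalamus, was higher (0.75 ± 0.14 log2 units, 1.68-fold higher, adjusted p = 7.7e-04), as was Iyd, an enzyme that recovers iodide (0.41 ± 0.11).

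Of 19 genes of telencephalic interneurons 12 were lower and 4 higher (median -0.84; 13 lower and 2 higher with arrays centred). The peptides Vip and Npy were lower, with differences of -1.92 ± 0.11 and -1.55 ± 0.10, and Dlx1 and Dlx5, the homeobox factors that specify these cells, at -1.43 ± 0.13 and -1.31 ± 0.16. Pvalb, the calcium-binding protein parvalbumin, went the other way, at 10.19 to 11.00 (median 10.43) in hindbrain, against 9.20 to 9.50 (median 9.25) in forebrain. The groups did not overlap, and the difference was 1.19 ± 0.062 log2 units, 2.28-fold higher, adjusted p = 5.1e-08. Parvalbumin is also made by many brainstem neurons. Adarb2, an RNA-binding protein of the editing enzyme family, was higher by 0.45 ± 0.060, Gad2 as given above, and Npas1, a factor of pallidal and cortical inhibitory cells, by 0.25 ± 0.084, a call lost on leaving out any one of BB687, BB702, BB703 or BB707 (differences of 0.18 to 0.25).

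Of 12 olfactory bulb genes 8 were lower and 3 higher in hindbrain (median -0.80), led by Cdhr1, a cadherin-related protein of mitral cells (-1.81 ± 0.23 log2 units, 3.5-fold lower, adjusted p = 4.9e-05), and Eomes, a factor of mitral and tufted cells (-1.47 ± 0.23). The 3 that were higher, Slc17a6, Th and the calcium-binding calretinin gene Calb2 (1.58 ± 0.13), mark brainstem or thalamic cells as well.

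Genes of the postsynaptic density and of dendrites, which anchor receptors and shape the spines of excitatory synapses, were lower in hindbrain in 27 of 28 cases and higher in none, with a median of -0.96. Itpka, an inositol trisphosphate kinase of dendritic spines, was at 5.90 to 7.64 (median 6.55) in hindbrain, against 9.55 to 9.85 (median 9.79) in forebrain. The groups were separate, with a difference of -3.02 ± 0.18 log2 units, 8.1-fold lower, adjusted p = 1.3e-07. Ddn, dendrin, was lower, with a difference of -2.77 ± 0.22 (adjusted p = 9.0e-07), Baiap2, an actin regulator of spines, at -1.84 ± 0.10 and Homer1, which links metabotropic receptors to the scaffold, at -1.66 ± 0.089. The scaffold gene Dlg4, which encodes PSD-95, was lower, with a difference of -0.55 ± 0.053 and Camk2a, the kinase of synaptic plasticity, at -0.89 ± 0.085. Iqsec1, an exchange factor for Arf6, was the one member not called (0.02 ± 0.067, adjusted p = 8.4e-01).

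Among 15 ionotropic glutamate receptor subunits 7 were lower and 4 higher, against 18.3% and 22.4% of all clusters, and the median was -0.04. The lower ones were the NMDA subunits Grin2a (-1.32 ± 0.11 log2 units, 2.5-fold lower, adjusted p = 9.1e-07) and Grin2b (-1.01 ± 0.095 log2 units, 2.01-fold lower, adjusted p = 3.8e-06), the kainate subunits Grik5 (-0.89) and Grik3 (-0.78), and the AMPA subunits Gria1 to Gria3 (-0.71 to -0.54). Grin2d, the NMDA subunit of brainstem and midbrain, was at 7.09 to 7.80 (median 7.31) in hindbrain, against 5.83 to 6.63 (median 6.29) in forebrain. Its groups did not overlap, and it was higher by 1.13 ± 0.10 log2 units, 2.19-fold higher, adjusted p = 2.8e-06. Grin3a (0.69), an NMDA subunit that lowers calcium entry, the kainate subunit Grik1 (0.54) and the AMPA subunit Gria4 (0.21) were also higher.

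Of 15 GABA-A receptor subunits 5 were lower and 4 higher, against 18.3% and 22.4% of all clusters, with a median of 0.02. Gabrq, the theta subunit of monoaminergic and hypothalamic neurons, was at 8.15 to 8.90 (median 8.59) in hindbrain, against 4.88 to 6.88 (median 5.65) in forebrain. The ranges were over 1 unit apart, and the difference was 2.86 ± 0.19 log2 units, 7.27-fold higher, adjusted p = 2.3e-07. Gabre, the epsilon subunit of the same kinds of neurons, was higher by 1.53 ± 0.097 and Gabrg1, a gamma subunit, by 0.86 ± 0.10. Gabrd (-0.58), Gabra5 (-0.53), Gabra2 (-0.44), Gabrg3 (-0.30; -0.18 without BB701 and BB703) and Gabra4 (-0.24), subunits strong in forebrain, were lower. Gabra6, high in the hindbrain of BB701 and BB703 only, had a difference of 1.24 ± 0.54 and was not called (adjusted p = 8.6e-02). All its forebrain arrays were under the background level, so that this difference has no exact size.

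Of 86 potassium channel genes 26 were higher and 33 lower, and of 34 sodium and calcium channel subunits 8 were higher and 19 lower, against 22.4% and 18.3% of all clusters. Besides the 3 already given, Kcnh4 (-1.73 ± 0.085 log2 units, 3.33-fold lower, adjusted p = 3.9e-08), which belongs to the same family as Kcnh3, was among the lowest. Kcng4, a silent subunit, was the highest, at 7.07 to 7.76 (median 7.42) in hindbrain, against 5.32 to 5.80 (median 5.61) in forebrain. The groups did not overlap, and the difference was 1.84 ± 0.10 log2 units, 3.58-fold higher, adjusted p = 6.4e-08. Kcnj10 and Kcnj16, the inward rectifiers that together buffer potassium in glia, were higher by 1.00 ± 0.054 and 1.07 ± 0.064, and Kcnh8, another ether-a-go-go relative, by 1.13 ± 0.10. Scn9a, a sodium channel best known from sensory neurons, was higher by 1.58 ± 0.14 (adjusted p = 2.9e-06) and Cacna2d2, a calcium channel subunit, by 0.97 ± 0.088. Cacng3, which escorts AMPA receptors, and Cacna1e, an R-type calcium channel, were lower, with differences of -1.38 ± 0.086 and -1.04 ± 0.086.

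Serotonin receptors went both ways, with a share higher near the 22.4% of all clusters, of which 18.3% were lower. Of 14 measured 3 were higher and 6 lower (5 and 6 without BB701 and BB703): Htr7 (0.97 ± 0.052 log2 units, 1.96-fold higher, adjusted p = 5.5e-08) and Htr2c (0.96 ± 0.14 log2 units, 1.95-fold higher, adjusted p = 1.4e-04), a receptor strong in the choroid plexus and in many nuclei, led the higher ones, while Htr1f (-1.17 ± 0.072 log2 units, 2.26-fold lower, adjusted p = 1.3e-07) and Htr2a (-1.05 ± 0.056 log2 units, 2.08-fold lower, adjusted p = 5.4e-08), a cortical receptor to which clozapine binds, led the lower ones. Eph receptors and ephrins, the contact signals that guide axons, were lower in 11 of 21 cases and higher in 3, against 18.3% and 22.4% of all clusters. Efnb2 (-1.24 ± 0.11 log2 units, 2.35-fold lower, adjusted p = 2.4e-06) and Epha3 (-0.93 ± 0.083 log2 units, 1.91-fold lower, adjusted p = 2.1e-06) led the lower ones, and Efnb3, a midline ephrin, was higher by 0.54 ± 0.067.

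Of 33 neuropeptide genes 17 were higher and 9 lower in hindbrain (median 0.20). Hcrt, Rln3, Gal and Oxt led the higher ones and Vip, Npy, the gut-brain peptide Cck (-0.94 ± 0.090 log2 units, 1.91-fold lower, adjusted p = 4.2e-06) and the opioid precursor Pdyn (-0.78 ± 0.17 log2 units, 1.72-fold lower, adjusted p = 2.6e-03) the lower ones. Cartpt, a feeding-related peptide, was higher by 1.03 ± 0.27 and Pnoc, the nociceptin precursor, by 0.82 ± 0.059. Grp, gastrin-releasing peptide, was lower (-0.45 ± 0.14, adjusted p = 2.4e-02), a call lost on leaving out any one of BB685, BB686, BB687 or BB702 (differences of -0.41 to -0.35).

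Neurofilaments and genes of fast-conducting axons were higher in 12 of 14 cases and lower in none, with a median of 0.60. Sncg, gamma-synuclein, a protein of motor, sensory and monoamine neurons, was at 9.52 to 10.49 (median 10.08) in hindbrain, against 6.68 to 7.76 (median 7.06) in forebrain. The groups were separate, with a difference of 2.97 ± 0.13 log2 units, 7.82-fold higher, adjusted p = 2.1e-08. Of the neurofilament subunits, the heavy chain Nefh was higher by 1.55 ± 0.049, the medium chain Nefm by 0.90 ± 0.066 and the light chain Nefl by 0.47 ± 0.044. Vamp1, the synaptic vesicle protein of brainstem and spinal synapses, was higher by 1.246 ± 0.045 (adjusted p = 6.8e-09).

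All 26 oligodendrocyte and myelin genes measured were higher in hindbrain, between 0.54 for Sox10, the master factor of the lineage, and 1.58 for Hapln2, a matrix protein of the nodes of Ranvier. The median was 0.87. Mag, a myelin-associated glycoprotein, was at 10.72 to 11.12 (median 11.00) in hindbrain, against 9.60 to 10.07 (median 9.74) in forebrain. The groups did not overlap, and the difference was 1.19 ± 0.068 log2 units, 2.28-fold higher, adjusted p = 8.7e-08. Mog, a protein of the outer myelin surface, was higher by 1.05 ± 0.071 and Aspa, which breaks down N-acetylaspartate, by 1.23 ± 0.056. Gjb1, the connexin of myelin, was higher by 1.498 ± 0.12, with BB707 at 2.42 and the other mice at 0.84 to 1.58. Of 10 precursor genes 8 were higher and none lower (median 0.33), and Pdgfra, the growth factor receptor that marks these cells, differed by 0.21 ± 0.068 (adjusted p = 2.7e-02).

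Astrocyte genes were unequal. Of 19 measured 15 were higher and 3 lower (median 0.60). Agt, angiotensinogen, was at 11.03 to 11.45 (median 11.22) in hindbrain, against 8.18 to 9.34 (median 8.50) in forebrain. The ranges did not overlap, and the difference was 2.63 ± 0.13 log2 units, 6.19-fold higher, adjusted p = 3.3e-08. Itih3, a hyaluronan-binding protein, was higher by 2.16 ± 0.10, Slc6a11, a GABA transporter, by 1.19 ± 0.057 and Gfap, the glial filament, by 0.60 ± 0.10. The 2 glutamate transporters of astrocytes, Slc1a2 and Slc1a3, were lower, with differences of -0.30 ± 0.044 and -0.34 ± 0.040, and Mfge8, which bridges dying cells to phagocytes, at -0.55 ± 0.059. Aldh1l1, a metabolic enzyme of most astrocytes, differed by 0.24 ± 0.050 (adjusted p = 1.7e-03).

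Of 17 microglial genes 1 was higher and 7 lower (median -0.12; 1 higher and 10 lower with arrays centred). The lower ones were led by Fcrls (-0.45 ± 0.078), an Fc receptor-like protein, and Siglech (-0.30 ± 0.050), a lectin, and the higher one was Tyrobp (0.26 ± 0.065), the adaptor of the Trem2 receptor. Of 21 endothelial and mural genes 18 were higher and none lower (median 0.32), and 12 were in the fit of 48 arrays with surrogate variables. Acta2, the actin of smooth muscle, was higher by 1.13 ± 0.14 and Slc2a1, the glucose transporter of the blood-brain barrier, by 0.54 ± 0.063.

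Meningeal genes were higher in 11 of 15 cases and lower in none (median 0.45, and 0.33 without BB707, when 11 were higher), and 7 were higher in the fit of 48 arrays with surrogate variables. The hindbrain of BB707 was the highest for the matrix proteins Ogn, at 8.23, and Fmod, at 8.82. Fmod was higher by 0.61 ± 0.20 over the 8 mice and by 0.37 without BB707, and the call was lost without BB708 (adjusted p = 5.3e-02). Aldh1a2, an enzyme that makes retinoic acid, was higher by 0.79 ± 0.13. Of 6 blood genes 2 were higher and none lower.

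Choroid plexus genes depended on single mice. Of 16 measured 6 were lower and 1 higher (median -0.41). Ttr, transthyretin, the main secreted product of the plexus, was at 7.89 to 12.44 (median 11.17) in hindbrain, against 11.20 to 12.29 (median 11.92) in forebrain. The hindbrain samples of BB703, BB707 and BB708 were low, at 7.89 to 9.18, while the other 5 lay in or near the forebrain range, and the difference was -1.38 ± 0.44 (adjusted p = 2.3e-02). The call for Ttr was lost on leaving out any one of BB703, BB707 or BB708 (differences of -1.24 to -1.04). The number of plexus genes called lower was 11 without BB686, 3 without BB701, 4 without BB702, 3 without BB703, 4 without BB707, 2 without BB708 and 1 without both BB701 and BB703. In the 4 clozapine mice alone 12 were lower and in the 4 vehicle mice alone 0. The one higher member was Otx2.

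MicroRNA genes were also measured, as primary transcripts or hairpins together with any host transcript that the probes lie in. The array does not measure the mature strand by itself. MicroRNAs are short RNAs that pair through their seed, bases 2 to 8, with sites in target transcripts and lower their output. Of 301 microRNA genes 16 (5.32%) were higher and 64 (21.3%) lower in hindbrain (median -0.06), against 22.4% higher and 18.3% lower among all clusters. The lower share was thus near the background share and the higher share below it. These genes were dim, at a median level of 5.16. Of 990 olfactory receptor genes, dimmer still, 4 were higher and 85 lower (median -0.06). Of the called microRNA genes, 33 moved the same way in 8 of 8 mice and were called on both array formats, 8 higher and 25 lower. The 18 of them with a difference of at least 0.5 were singled out after their values were seen. The mature sequences of 3 are given from RefSeq (GRCm38.p6) as 5′ to 3′ RNA, with the seed in capitals: the 2 families with 2 loci each that were lower, and one that was higher and above the background level in both pieces.
mmu-miR-128-3p: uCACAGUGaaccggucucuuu
mmu-miR-9-5p: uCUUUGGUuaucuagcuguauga
mmu-miR-219a-5p: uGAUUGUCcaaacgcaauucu
The sequence of miR-128-3p, a neuronal microRNA, is the same from both of its loci, Mir128-1 (chr1:128202404-128202424, plus strand) and Mir128-2 (chr9:112118644-112118664, minus strand), and both were lower. Mir128-1 was at 7.67 to 8.57 (median 7.94) in hindbrain, against 9.74 to 10.38 (median 10.17) in forebrain. The groups did not overlap, with a difference of -2.07 ± 0.15 (adjusted p = 4.2e-07), and its host gene R3hdm1 was lower, with a difference of -1.03. Mir128-2 was lower, with a difference of -1.20 ± 0.11 (adjusted p = 3.5e-06), beside its host Arpp21, a striatal and cortical phosphoprotein gene, at -1.35. Mir9-2 (chr13:83738821-83738843, plus strand) and Mir9-3 (chr7:79505279-79505301, plus strand), loci of miR-9-5p, a microRNA of neural progenitors and neurons, were lower, with differences of -1.04 ± 0.046 (adjusted p = 2.5e-08) and -0.61 ± 0.10 (adjusted p = 3.9e-04).

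Mir219a-2 (chr2:29845689-29845709, minus strand), whose miR-219a-5p promotes oligodendrocyte maturation, was at 6.50 to 8.03 (median 7.41) in hindbrain, against 5.98 to 6.65 (median 6.35) in forebrain. The groups overlapped narrowly, and it was higher by 1.06 ± 0.089 (adjusted p = 1.4e-06), beside its host Cercam at 0.53, and moved the same way as the myelin genes above. Mir135a-2 was at 4.21 to 5.32 (median 4.93) in hindbrain, against 3.27 to 3.80 (median 3.60) in forebrain. All forebrain arrays and 3 of the 8 hindbrain arrays were under the background level, so that the difference was at least 1.04-fold (adjusted p = 1.8e-06). Mir34a, known as a target of p53, was called higher (adjusted p = 3.2e-04) but averaged under the background level in both pieces. The remaining higher ones were Mir145a, of smooth muscle, and Mir384, at 0.67 and 0.61, and the remaining lower ones lay between -0.87 for Mir15a and -0.52 for Mir151, whose hindbrain arrays were all under the background level. Where the host was measured (10 of the 18 genes), it moved in the same direction as the microRNA gene, and the probes within a host can also bind its transcript, so the 2 values are not separate evidence.

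**Figure D4:**
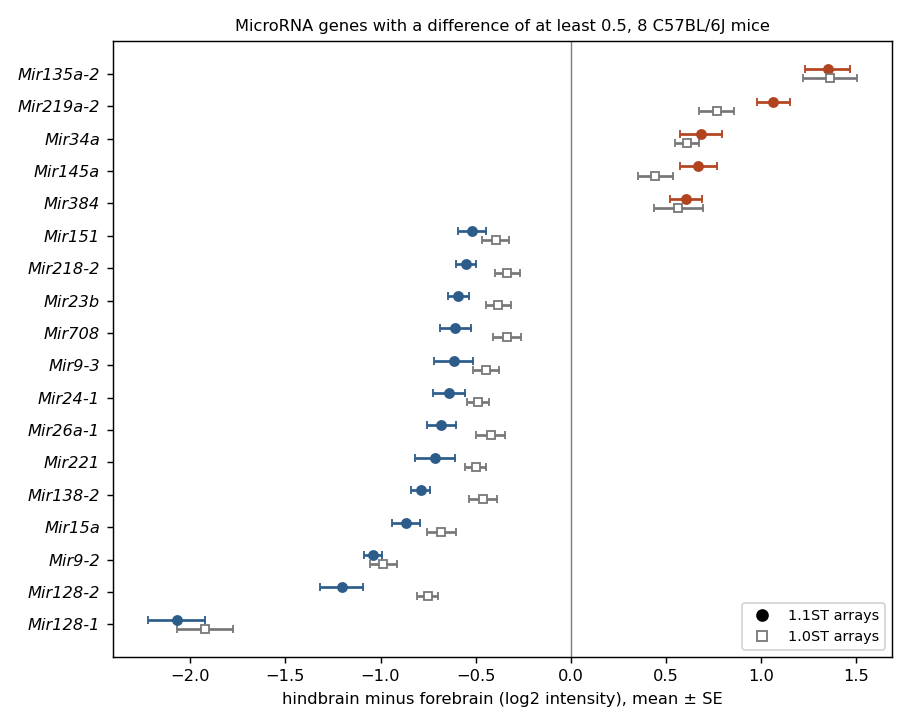
Difference between hindbrain and forebrain (x axis, log2 intensity, mean ± SE of 8 mice) of the 18 microRNA genes with a difference of at least 0.5, one row a gene, on the 1.1ST arrays (filled) and the 1.0ST arrays (open squares). The 5 genes with positive values range from 0.61 for Mir384 to 1.35 for Mir135a-2, and the 13 with negative values reach -2.07 for Mir128-1; the forebrain arrays of Mir135a-2 and Mir34a and the hindbrain arrays of Mir151 were all under the background level.

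The intact hemispheres of the same mice were set between the pieces. For each of the 30 genes with the largest differences, the share of the way from forebrain to hindbrain at which the whole hemisphere lay on the log2 scale was computed, as a description. The shares ran between 9.4% and 70.8%, with a median of 31.4% (27.5% on the 1.0ST arrays). They were larger for the 15 genes higher in hindbrain (median 56.5%) than for the 15 lower ones (median 13%). On a log scale a gene made in 1 piece only lies near that piece in a mixture, so the shares are not mass fractions. Slc6a5 was at 64.6% and Tbr1 at 10.2%. These rest on means of 8 hemispheres, whose standard deviation was 1.43 log2 units for Slc6a5 and 0.31 for Tbr1.

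Whether the difference between the pieces depended on clozapine was tested on the 8 within-mouse differences, 4 clozapine against 4 vehicle. No cluster was called (0%), at a smallest adjusted p of 0.999, and 1248 clusters had an unadjusted p below 0.05. No call was made on the 1.0ST arrays, with the false discovery formula of the study, among clusters above the olfactory receptor level, or on leaving out any one mouse. The 5 genes with the smallest p were Prr32, Cldn1, Prr5l, Ephx4 and Fam131a. The difference of Cldn1, a tight junction claudin, was -0.62 in clozapine mice and -0.02 in vehicle mice (adjusted p = 0.999 in the limma fit). Fam131a, a gene of unknown function, gave -1.78 in clozapine mice and -2.38 in vehicle mice (adjusted p = 0.999 in the limma fit). The single differences of Fam131a ran from -1.97 to -1.62 in clozapine mice and from -2.56 to -2.11 in vehicle mice, without overlap. This gene was picked for its small p. With 4 mice an arm and 28310 clusters tested, even arms that did not overlap could go without a call. The absence of calls therefore does not show that a dependence was absent.

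The same contrast was then tested in its dependence on strain, as the difference of C57BL/6J minus that of NOD/ShiLtJ. In NOD mice alone 11423 clusters were called, 6804 higher and 4619 lower, and 97.1% of the clusters called in C57BL/6J differed in the same direction there. The strains differed for 263 clusters (0.929%), 168 with the larger value in C57BL/6J and 95 with the smaller, and by at least 2-fold for 12 in each direction. Of the 30 genes with the largest differences, all 30 were called the same way in NOD and 1, Prkcd, was called for strain dependence. Hcrt differed by 3.16 in C57BL/6J and 1.64 in NOD. Its strain difference of 1.53 ± 0.40 was not called (adjusted p = 0.084 in the limma fit), and its NOD differences ran from -0.01 to 3.04.

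One NOD forebrain sample, that of the clozapine mouse DD678, stood apart in the genes high in hindbrain. It was the highest of the 8 NOD forebrain samples for 14 of the 15 genes highest in C57BL/6J hindbrain, and for 14 of them it lay above every C57BL/6J forebrain sample, which the forebrain of DD657 did for 11. Slc6a5 was at 8.15 in the forebrain of DD678 and at 5.23 to 6.34 in the other 7, and Glra1 at 8.07 against 4.86 to 6.85. Each NOD mouse was therefore left out in turn, an alternative chosen after seeing the data. Without DD678 the strains differed for 275 clusters, 152 with the larger value in C57BL/6J and 123 with the smaller.

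Of the 16 thalamic genes 6 were called larger in C57BL/6J and none smaller, with medians over the list of 1.71 in C57BL/6J and 1.05 in NOD. Without DD678, 7 were called larger, with Tcf7l2 added, and the NOD median was 1.16. On leaving out any other NOD mouse the same 6 were called, with Tcf7l2 added without DD676 or DD677. Prkcd differed by 3.05 ± 0.14 in C57BL/6J and 1.34 ± 0.15 in NOD, a strain difference of 1.71 ± 0.23 (adjusted p = 3.7e-04). In the pieces themselves it averaged 10.61 in C57BL/6J hindbrain and 9.91 in NOD hindbrain, and 7.56 in C57BL/6J forebrain and 8.57 in NOD forebrain. The NOD hindbrain samples lay between 9.49 and 10.26 and the NOD forebrain samples between 7.76 and 9.48, the highest being those of DD678 and DD657 (9.26). Without DD678 the difference in NOD was 1.42 and the strain difference 1.63 (adjusted p = 9.2e-04). The others included Synpo2, an actin-binding protein (2.13 in C57BL/6J and 0.96 in NOD), Ramp3, a receptor accessory protein (1.57 in C57BL/6J and 0.63 in NOD), Ntng1, the adhesion protein netrin-G1 of thalamic axons (1.41 in C57BL/6J and 0.85 in NOD), and Lef1, a Wnt pathway factor (1.34 in C57BL/6J and 0.64 in NOD). Slc17a6 differed by 2.55 ± 0.069 in C57BL/6J and 2.31 ± 0.16 in NOD, a strain difference of 0.24 ± 0.20 (adjusted p = 0.760) that was not called.

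**Figure D5:**
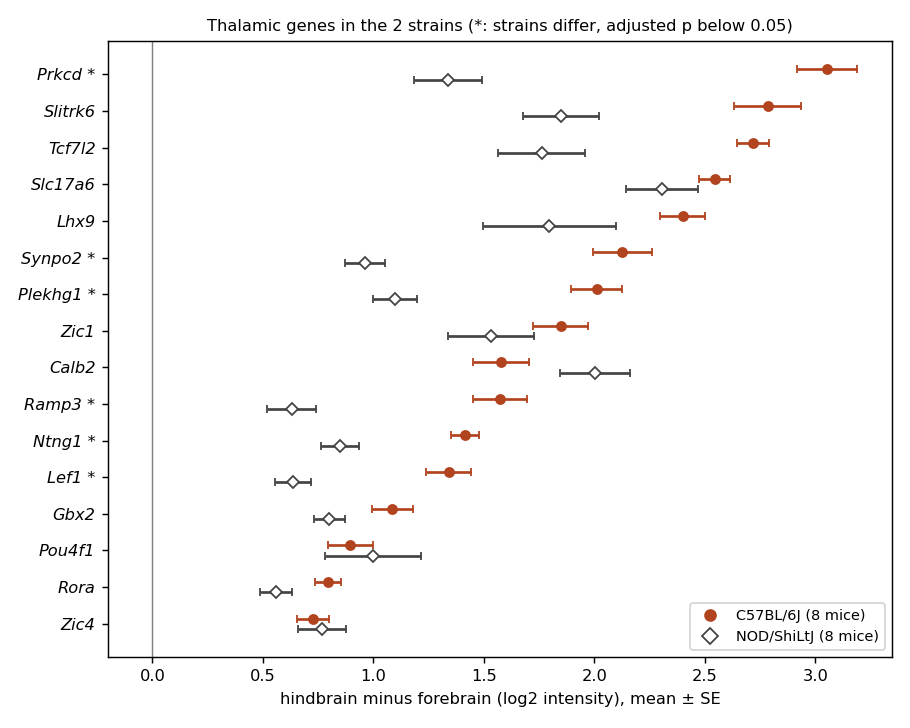
Difference between hindbrain and forebrain (x axis, log2 intensity, mean ± SE) of the 16 thalamic genes in C57BL/6J (filled circles, 8 mice) and NOD/ShiLtJ (open diamonds, 8 mice), one row a gene, with an asterisk where the strains differed at an adjusted p below 0.05. All 32 values lie above 0, and the gap between strains is widest for Prkcd, at 3.05 in C57BL/6J and 1.34 in NOD.

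The 5 genes with the smallest p for strain dependence were Tmprss11d, Smyd1, Gm5148, Crnde and Pkd2l1. Crnde, a long noncoding RNA gene, was at 6.10 to 7.36 (median 6.76) in C57BL/6J hindbrain, against 4.98 to 5.25 (median 5.10) in C57BL/6J forebrain. Its difference was 1.62 ± 0.11 in C57BL/6J and 0.29 ± 0.088 in NOD, and the strain difference 1.32 ± 0.15 (adjusted p = 7.1e-05). Pkd2l1, a channel of neurons that contact the cerebrospinal fluid, differed by 1.03 ± 0.080 in C57BL/6J. Smyd1, a methyltransferase of muscle, differed by 0.77 ± 0.056 and Gm5148, a predicted gene, by 0.80 ± 0.069 in C57BL/6J. In NOD these 3 genes were at or under the background level, so that no difference between the pieces could be measured there. Smyd1 lay at 4.35 to 4.71 in NOD hindbrain and 4.39 to 4.78 in NOD forebrain, Gm5148 at 3.90 to 4.63 and 4.17 to 4.93, and Pkd2l1 at 4.34 to 4.53 and 4.19 to 4.94, with 1 NOD forebrain array above that level for each of Gm5148 and Pkd2l1. Tmprss11d, a serine protease of airways, ran the other way: it was under the background level in both pieces of C57BL/6J and at least 1.5-fold higher in hindbrain than in forebrain in NOD. In NOD hindbrain it lay between 5.09 and 5.89, above all C57BL/6J values of 3.47 to 3.89. Hoxa4, a Hox gene of the medulla, had a smaller difference in C57BL/6J (0.06 ± 0.050) than in NOD (0.36 ± 0.053, strain difference -0.30 ± 0.071 (adjusted p = 0.045)).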

How the data were processed

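Total RNA of frozen brain pieces of adult male mice was measured on Affymetrix Mouse Gene 1.1ST and 1.0ST arrays, and the authors deposited log2 intensities of 28310 transcript clusters, summarised and normalized by RMA. The submitters' processing notes name Affymetrix Expression Console 1.1, and the genome build is not given in the sources used here. The values were used as deposited. Of the clusters, 21207 carry 1 gene symbol, 1867 several and 5236 none, 99 whose symbol differed between formats were not named, and a gene with several clusters is given by its brightest one.

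Hindbrain minus forebrain was fitted with limma 3.58.1 (R 4.3.3) with mouse as a block, and p-values were adjusted by Benjamini-Hochberg over all clusters. The pairing comes from the mouse identifier: deviations from the group means correlated by 0.123 on average within a mouse (-0.0983 to 0.345) and at -0.0168 between mice. Treatment dependence was fitted on 8 differences and strain dependence on 16. The script was tested on simulated data. The methods of the study fit all regions together with batch, treatment, mouse and surrogate variables. Such a fit on 48 arrays, without batch, which is in no label, was an alternative, and no values within batches can be given. The surrogate variables were drawn from levels that also hold the difference between the pieces. They were left out of the main fit because they can take up part of that difference. The other alternatives were no block, a random block, the 1.0ST arrays, the false discovery formula of the methods, only clusters above the 95th percentile of olfactory receptor genes, centred arrays, each treatment alone, each mouse left out and a gene's second brightest cluster. Leaving out both BB701 and BB703, leaving out each NOD mouse, and giving folds as bounds against that percentile were chosen after seeing the data.

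The genes named are the 15 with the largest differences each way among those of 1 sign in 8 of 8 mice and on the 1.0ST arrays, up to 4 called members of each list in each direction with exceptions and defining members that were not called, and the 5 with the smallest p for treatment and for strain dependence. Further list members given with their values (such as Drd1, Dlg4, Camk2a, Chat, En1 and Pdgfra) and the microRNA genes were chosen after their values were seen. Members and lists were chosen with earlier results of these data known. MicroRNA sequences were matched by gene symbol to RefSeq (GRCm38.p6).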

Additional observations from a re-analysis of the deposited data

Results flagged for a closer look

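In 18 of 205 named genes the difference of 1 mouse lay apart from those of the other 7 by Dixon's test, which chance does for about 1 gene in 20. Mouse BB702 had the smallest fall of 3 cortical genes: Fezf2 differed at -2.05 there and at -3.73 to -2.96 in the others, Dkkl1 at -1.80 against -3.38 to -2.67, and Vxn at -1.37 against -2.73 to -2.22. Mouse BB707 had the largest rise of the myelin connexin Gjb1 (2.42, against 0.84 to 1.58 in the others), of the growth factor Bmp4 (1.71, against -0.05 to 0.75), of the smooth muscle myosin Myh11 (1.38, against 0.29 to 0.80) and of the meningeal matrix genes Ogn (2.06, against 0.38 to 1.12) and Fmod (2.24, against -0.14 to 0.61).

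Mouse BB701 stood highest for Cbln1 (3.24, against 1.41 to 2.09) and Ppp1r17 (3.86, against 0.66 to 1.85), genes of cerebellar granule and Purkinje cells, and for the potassium channel Kcnk10 (1.11, against 0.12 to 0.41). Without BB701 and BB703 the mean difference of Ppp1r17 was 0.93, against 1.41 in all 8 mice. All its forebrain arrays were under the background level, so that its differences have no exact size. Mouse BB703 stood highest for the channels Kcnc1 (0.68, against 0.08 to 0.33) and Cacna1g (1.00, against -0.11 to 0.37), lowest for the precursor gene Lhfpl3 (0.55, against 1.03 to 1.30) and for angiotensinogen, Agt (1.68, against 2.47 to 3.17), and nearest 0 for Ephb6 (-0.36, against -1.11 to -0.86). The junction gene Dsp was lowest in BB685 (-2.08, against -1.16 to -0.46) and the serotonin receptor Htr6 in BB708 (-1.29, against -0.81 to -0.39).

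The strains differed in a test of the difference itself for 6 of the named genes chosen by size or p. The difference in C57BL/6J minus that in NOD was 1.71 for Prkcd (3.05 in C57BL/6J and 1.34 in NOD), 1.32 for Crnde (1.62 in C57BL/6J and 0.29 in NOD), 1.01 for Pkd2l1 (1.03 in C57BL/6J and 0.03 in NOD), 0.98 for Gm5148 (0.80 in C57BL/6J and -0.18 in NOD), 0.81 for Smyd1 (0.77 in C57BL/6J and -0.04 in NOD) and -1.80 for Tmprss11d (-0.05 in C57BL/6J and 1.76 in NOD). The NOD levels of Pkd2l1, Gm5148 and Smyd1, the C57BL/6J levels of Tmprss11d and its NOD forebrain levels were at or under the background level, so that the sizes of these differences are not exact.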

How the results depend on the processing

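The 11514 calls fell to 5752 (3329 higher, 2423 lower) in the 4 clozapine mice alone and to 8533 in the 4 vehicle mice. Both arms had the same number of mice, and the cause of the gap between them was not tested. The 5182 lower calls became 8685 with arrays centred on their medians. Without mouse as a block 11085 clusters were called, 6148 higher and 4937 lower, and of the counts of listed genes that moved by over 1.5 times, lower cerebellar genes were 1 in place of 2, higher plexus genes 2 in place of 1, lower Hox genes 0 in place of 1 and higher striatal genes 1 in place of 0. Leaving out 1 mouse gave 10242 to 11375 calls (5638 to 6272 higher, 4472 to 5169 lower). The other settings gave between 9097 calls (48 arrays with surrogate variables) and 14474 (the false discovery formula of the methods). The 263 strain calls (168 larger and 95 smaller in C57BL/6J) were 137 on the 1.0ST arrays (95 larger, 42 smaller) and 632 in the 48-array fit (321 larger, 311 smaller), and 185 to 282 on leaving out 1 mouse of either strain (115 to 179 larger, 66 to 123 smaller). With surrogate variables, lower GABA-A subunits were 3 in place of 5, lower plexus genes 2 in place of 6, higher hippocampal genes 0 in place of 2, and lower dopamine neuron and nicotinic genes 1 each in place of 2. The cause of these moves was not tested. Treatment dependence gave 0 calls under each of its alternatives. Of 205 named genes 153 kept their direction and call under every alternative run. The sign of Dsp turned to 0.0631 in its second brightest cluster, and that of Hoxc8 to 0.0159 in the 48-array fit with surrogate variables. Genes near the level of olfactory receptors, most Hox genes among them, had little signal over background.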
